A study of Danio rerio with 7 samples.

Results

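Peroxisomes are small membrane-bound organelles that oxidise fatty acids too long or too branched for mitochondria, begin the synthesis of ether lipids and break down glyoxylate and some amino acids. They have no DNA of their own, so peroxins, the proteins encoded by *pex* genes, build their membrane, bring folded enzymes in from the cytosol and divide the organelle. Peroxisomes are abundant in liver and kidney, and in the heart the mitochondria carry out most fatty acid oxidation. The genes described here are those whose zebrafish symbol starts with *pex* and a digit, with *acox*, or with *abcd* and a digit, together with the genes of a written list of peroxisomal enzymes. By this rule 37 gene IDs under 36 symbols were found among the 33737 gene IDs of the tables, and 36 of them were tested among 21632 genes with enough counts. The rule used symbols only and no measured value.

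RNA sequencing compared 4 libraries of hearts homozygous for *cora* stl325 (*cora* stl325/stl325; *Tg(cmlc2::gfp)*) with 3 libraries of hearts from unaffected *Tg(cmlc2::gfp)* clutchmates, all at 96 hours post fertilisation (hpf). The labels give heart as the tissue of every library, while the sample titles name zebrafish embryos, and the study describes dissected hearts. The *cora* (*corazoncito*) allele came from a chemical mutagenesis screen and carries a nonsense mutation in *taf5*, the gene of a scaffold subunit of the general transcription factor TFIID. The transgene, carried by both groups, drives a green fluorescent protein in cardiomyocytes. Each library was made from a pool of hearts, the control genotype is labelled wild type while the study describes unaffected clutchmates, and such clutchmates can include heterozygous carriers. In the labels the *cora* libraries are numbered 1 to 4 and the control libraries 1 and 3, and a further control library is unnumbered. Nothing in the labels says whether the pools came from separate clutches, so p-values measure only the spread between these pools.

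Between 21474488 and 25643733 reads were counted on genes in *cora* libraries, and between 27698492 and 32037220 in control libraries. *taf5* was at 1.97, 3.10, 3.70 and 4.56 normalized CPM (read counts relative to the library size, scaled by TMM) in *cora* libraries 1 to 4, against 8.83, 5.10 and 5.27 in control libraries 1, 3 and unnumbered, without overlap (log2 fold change -0.94, adjusted p = 0.232). Its exons share 11 bases with antisense *atp5md*, whose reads could be mixed in because the use of strand is not given. Control library 1 stood apart, with 33.7% of its counts on the mitochondrial chromosome against 16.84 to 21.81% in the other 6 libraries. Cardiomyocyte markers were all counted in all libraries but were a small share of the counts, 0.0407 to 0.222% in *cora* and 0.0293 to 0.383% in control libraries, and in every library they took a smaller share than liver or epidermis markers. The labelled tissue was thus not the leading one among these marker lists. Liver markers, none of which was at 0 throughout, took 0.428 to 2.99% in *cora* and 0.875 to 3.47% in control libraries, and exocrine pancreas markers 0.0804 to 0.169% in *cora* and 0.560 to 2.61% in control libraries. Epidermis markers took 1.97 to 3.28% in *cora* and 1.19 to 3.25% in control libraries. All 11 cardiomyocyte markers had a log2 fold change below 0 (against 52.2% of all genes), with a median of -0.82, and 0 had an adjusted p under 0.05. Of 13 exocrine pancreas markers 12 were below 0, with a median of -4.76, and 11 fell at that threshold (84.6%, against 0.860% of all genes). Of 10 epidermis markers 6 were below 0 and 4 above, with a median of -0.02. In bulk samples, fewer cells of a type and less RNA per cell cannot be told apart.

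Most peroxisomal genes had a lower level in *cora* hearts, and the largest differences were among the enzymes of beta-oxidation. Of the 36 members tested, 29 were below 0 on the log2 scale (80.6%, against 52.2% of all genes tested) and 7 were above 0. The median log2 fold change was -0.34, against -0.03 over all genes tested. *scp2a* and *acaa1*, both thiolases of the last step of beta-oxidation, were the 2 members that fell at an adjusted p under 0.05 (5.56% of the members tested, against 0.860% of all genes). No member rose at that threshold, which 1.11% of all genes passed in that direction (edgeR's quasi-likelihood test, Benjamini-Hochberg adjustment across all genes tested). At an unadjusted p under 0.05, 9 members were lower (25.0%, against 8.61% of all genes) and 1 was higher, against 9.13% of all genes. For 9 members each *cora* library lay below each control library (25.0%, against 8.73% of all genes), and for 1 member, *pex5*, each lay above (9.01% of all genes). A log2 fold change of -1 or less was found for 7 members, against 8.84% of all genes tested.

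**Figure D1:**
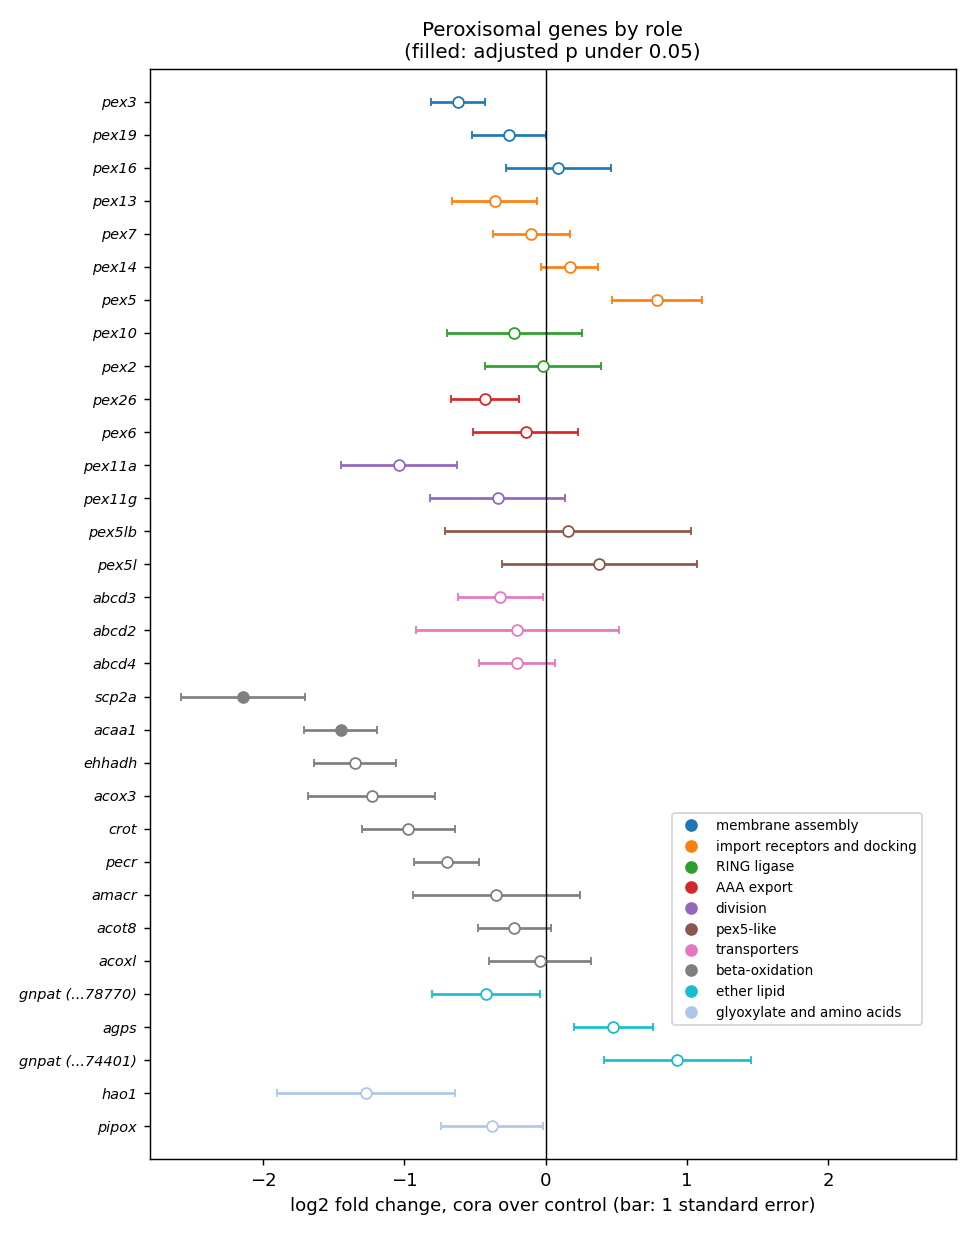
Log2 fold change of *cora* over control hearts for 32 of the peroxisomal genes tested, grouped by role (colour), with bars of 1 standard error from the fit over all genes. The 9 beta-oxidation genes shown all lie below 0, from -2.14 to -0.04, and the filled points, *scp2a* and *acaa1*, are the 2 with an adjusted p under 0.05; *pex5* at 0.79 and one *gnpat* gene at 0.93 lie farthest above 0.

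The level of these genes spanned a wide range. Per length (normalized CPM per kilobase of exon), *scp2a* was the highest member in both groups, at 28.4 in *cora* and 126 in control libraries. *hao1* (18.3 in *cora* and 44.1 in control libraries) and *acaa1* (14.3 in *cora* and 39.0 in control libraries) followed in control hearts, whereas *pex19* (22.6 in *cora* and 27 in control libraries) was second in *cora* hearts. *pex5* stood 9th of the 37 in *cora* hearts, at 6.33, and 21st in control hearts, at 3.66. The *pex5*-like genes, *abcd2* and *phyh* were at the low end in both groups, each under 0.5 per kilobase. *phyh*, which encodes the hydroxylase that starts alpha-oxidation of phytanic acid, had 1, 3, 2 and 2 counts in *cora* libraries 1 to 4, against 0, 3 and 4 in control libraries 1, 3 and unnumbered, and was too low to be tested.

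With all 7 libraries, the beta-oxidation enzymes had the lowest median of the roles. All 10 tested were below 0 (against 52.2% of all genes), with a median of -0.95 on the log2 scale. Of these, 7 had an unadjusted p under 0.05 (70.0%, against 8.61% of all genes), and 6 did not overlap between the groups (60.0%, against 8.73% of all genes). No difference between the roles was tested. Their summed level was 147, 194, 146 and 255 normalized CPM in *cora* libraries 1 to 4, against 356, 597 and 657 in control libraries 1, 3 and unnumbered, so that the highest *cora* library lay below the lowest control library. *scp2a* contributed the most reads to this sum in every library.

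*scp2a* encodes a thiolase joined to a sterol carrier domain, which in mammals cleaves branched acyl chains and bile acid precursors. It lies on chromosome 2 from 5647589 to 5682147 on the Zv9 build. Its level was 39.3, 51.6, 54.9 and 126 normalized CPM in *cora* libraries 1 to 4, against 168, 336 and 397 in control libraries 1, 3 and unnumbered. The groups did not overlap, although *cora* library 4 came near control library 1. The means were 68.0 ± 39.3 (SD, n = 4) in *cora* and 301 ± 119 (SD, n = 3) in control hearts, and the difference was -2.14 ± 0.44 on the log2 scale (± standard error, as for every fold change here, adjusted p = 0.0481, edgeR's quasi-likelihood test).

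*acaa1*, the straight-chain thiolase, lies on chromosome 24 from 20933764 to 20940912. Its level was 21.2, 31.5, 21.1 and 28.0 normalized CPM in *cora* libraries 1 to 4, against 46.3, 81.2 and 80.7 in control libraries 1, 3 and unnumbered. The *cora* libraries lay close together and under every control library, of which library 1 was the lowest. The means were 25.4 ± 5.17 (SD, n = 4) in *cora* and 69.4 ± 20.0 (SD, n = 3) in control hearts, and the difference was -1.45 ± 0.26 on the log2 scale (adjusted p = 0.0357, edgeR's quasi-likelihood test). When single libraries were left out, the log2 fold change stayed between -2.63 and -1.89 for *scp2a* and between -1.66 and -1.31 for *acaa1*. Each kept an adjusted p under 0.05 in 2 of the 7 fits, those without control library 1 and without *cora* library 4. Of all genes, these 2 fits called 2.48 and 1.35% lower. Each lost it without any of control library 3, the unnumbered control library and *cora* libraries 1, 2 and 3. Those fits called only 0.113 to 0.351% of all genes lower. There the adjusted p in edgeR's test lay between 0.113 and 0.188 for *scp2a* and between 0.0525 and 0.163 for *acaa1*.

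*ehhadh* encodes the bifunctional enzyme that hydrates and dehydrogenates acyl chains before the thiolase step. Its level was 6.32, 7.29, 3.74 and 6.08 normalized CPM in *cora* libraries 1 to 4, against 11.8, 16.5 and 16.5 in control libraries 1, 3 and unnumbered. Every *cora* library lay below every control library. The log2 fold change was -1.35 ± 0.29 and just missed the threshold (adjusted p = 0.0513), which it passed without control library 1 (adjusted p = 0.0306).

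*acox3* encodes an acyl-CoA oxidase, which carries out the first step on branched chains and releases hydrogen peroxide. *acox3* was at 3.85, 6.28, 1.66 and 5.46 normalized CPM in *cora* libraries 1 to 4, against 6.16, 11.7 and 12.6 in control libraries 1, 3 and unnumbered, so that *cora* library 2 and control library 1 overlapped (log2 fold change -1.23 ± 0.45, adjusted p = 0.198). *acoxl*, named for its likeness to the acyl-CoA oxidases, was at 4.81, 3.36, 7.94 and 7.84 normalized CPM in *cora* libraries, against 6.54, 5.37 and 6.61 in control libraries, with the *cora* values on either side of the control values and a log2 fold change of -0.04 (adjusted p = 0.968).

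*crot* encodes a carnitine acyltransferase through which shortened chains leave the peroxisome. Its level was 20.3, 25.4, 8.55 and 17.5 normalized CPM in *cora* libraries 1 to 4, against 39.2, 35.8 and 30.3 in control libraries 1, 3 and unnumbered. It was one of the genes for which control library 1 was the highest control, and the groups did not overlap (log2 fold change -0.97 ± 0.33, adjusted p = 0.168). *pecr*, an enoyl-CoA reductase of peroxisomes, was at 10, 9.5, 9.61 and 9.36 normalized CPM in *cora* libraries, which lay close together, against 12.1, 19 and 15.9 in control libraries (log2 fold change -0.70 ± 0.23, adjusted p = 0.151). The racemase gene *amacr* had a log2 fold change of -0.35 and the thioesterase gene *acot8* one of -0.22, both with overlapping groups.

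**Figure D2:**
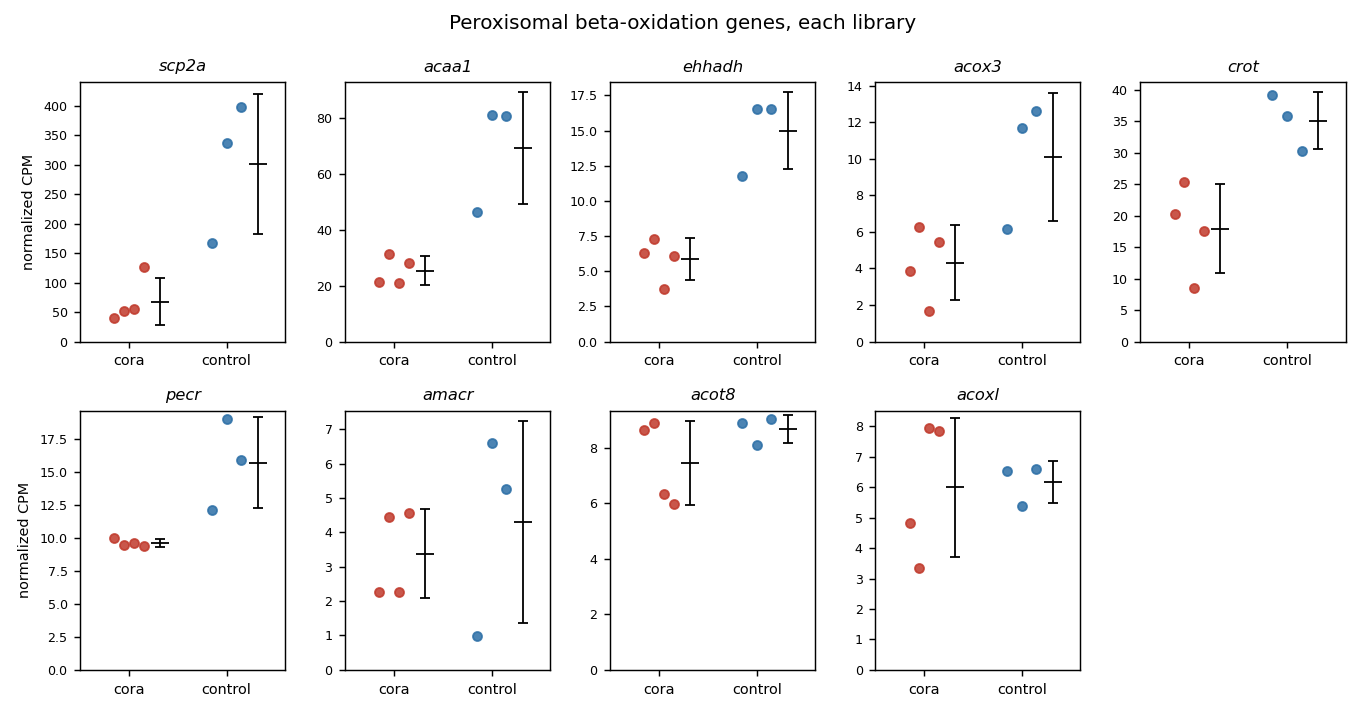
Normalized CPM of 9 beta-oxidation genes in each library, with *cora* libraries in red on the left and control libraries in blue on the right of each panel, and the mean with its SD as bars (n = 4 and n = 3). For *scp2a*, *acaa1*, *ehhadh*, *crot* and *pecr* every *cora* point lies below every control point, whereas *acox3*, *amacr*, *acot8* and *acoxl* overlap.

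The shares of liver and intestine markers also differed between libraries, and the level of some enzymes followed the liver share within a group. *hao1*, which encodes the glycolate oxidase of liver peroxisomes, was at 7.58, 16.2, 23.8 and 48.5 normalized CPM in *cora* libraries 1 to 4, against 18.6, 80.8 and 74.3 in control libraries 1, 3 and unnumbered. Liver markers (17 gene IDs, 16 of them with counts in every library) took 0.428, 0.639, 1.27 and 2.99% of the counts in the same *cora* libraries, against 0.875, 3.08 and 3.47% in the control libraries. The order of *hao1* followed that of the liver share, except that the 2 control libraries with the highest shares changed places, and its groups overlapped (log2 fold change -1.27 ± 0.63, adjusted p = 0.335). Within each group, *scp2a* stood in the order of the liver share over every library. Among *cora* libraries, *acaa1* and *ehhadh* did not follow that order, and both were highest in library 2 and lowest in library 3. Across the groups, *scp2a*, *acaa1* and *ehhadh* alike departed from the order of the share. *cora* library 4, with 2.99% liver markers, had 126 normalized CPM of *scp2a*, 28.0 of *acaa1* and 6.08 of *ehhadh*, against 168, 46.3 and 11.8 in control library 1, which had 0.875%. The marker shares are of all counts, without TMM scaling, and control library 1 had 33.7% of its counts on the mitochondrial chromosome. Of 16 liver markers tested, 12 were below 0, with a median of -1.06 on the log2 scale. At an unadjusted p under 0.05, 4 were lower (25.0%, against 8.61% of all genes). Without overlap, 2 lay lower (12.5%, against 8.73%). These, *fetub* and *ahsg2*, were at 1290 and 14.7 normalized CPM in *cora* library 4, against 1380 and 19.2 in control library 1. The other liver markers tested were higher in *cora* library 4 than in control library 1. Intestine markers (10 gene IDs, all with counts in every library) took 0.195, 0.217, 0.0691 and 0.193% of the counts in *cora* libraries 1 to 4, against 0.167, 0.289 and 0.268% in control libraries 1, 3 and unnumbered. Of these 10 genes 8 were below 0, with a median of -1.20 on the log2 scale, 5 were lower at an unadjusted p under 0.05 (50.0%, against 8.61% of all genes) and 4 lay lower without overlap (40.0%, against 8.73%). *fabp2*, a fatty acid binding protein of the intestine, was at 283, 432, 49.7 and 80.0 normalized CPM in *cora* libraries, against 613, 495 and 325 in control libraries. Its control libraries stood in the same order as those of *crot*, and both genes were highest in *cora* library 2 and lowest in *cora* library 3. Of the other intestine markers, *vil1* shared this pattern, whereas the control libraries of *pdzk1*, *apoa4b.1* and *cubn* stood in the opposite order. Those of the remaining markers stood in neither order, and *fabp6* (log2 fold change 2.96) and *apoa1a* (0.47) were above 0. *crot* did not follow the summed intestine share, which among control libraries was lowest in library 1. The part of the liver and intestine shares in these differences was not tested. *pipox*, which encodes an oxidase of pipecolate and sarcosine, was at 11.1, 8.0, 6.10 and 11.7 normalized CPM in *cora* libraries, against 6.67, 16.7 and 12.6 in control libraries, and its groups overlapped (log2 fold change -0.38, adjusted p = 0.64).

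**Figure D3:**
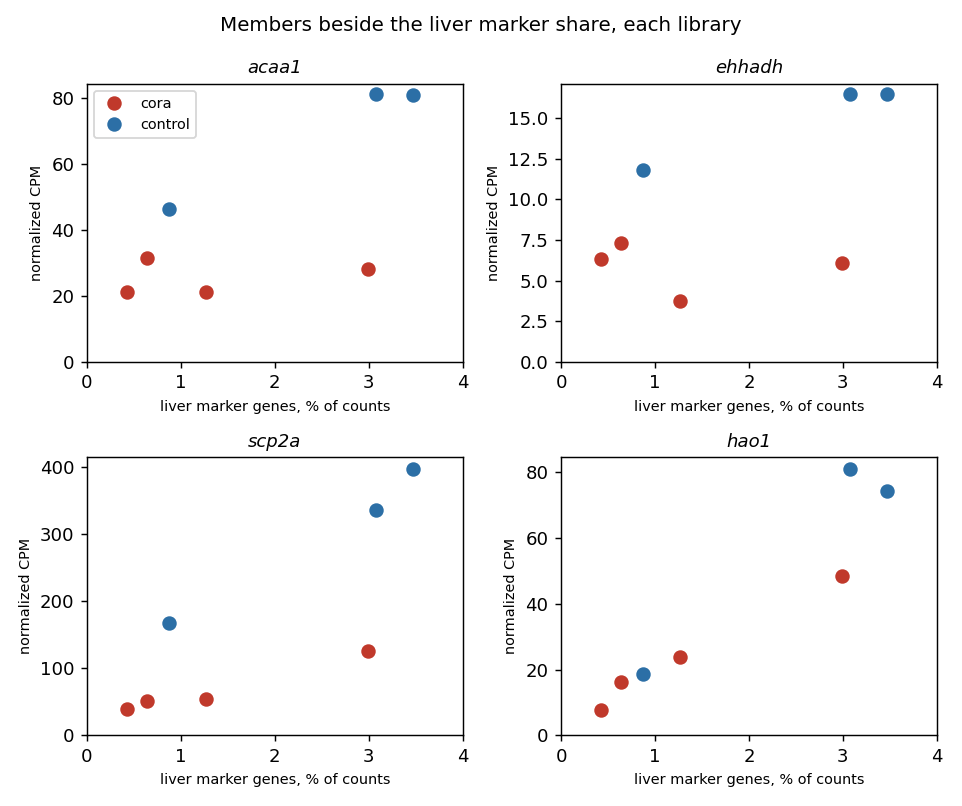
Normalized CPM of *acaa1*, *ehhadh*, *scp2a* and *hao1* in each of the 7 libraries, against the percentage of counts on liver marker genes, with *cora* libraries in red and control libraries in blue. The *cora* library with 2.99% liver markers lies at 126 for *scp2a*, 28.0 for *acaa1* and 6.08 for *ehhadh*, under the control library with 0.875%, while *hao1* climbs with the liver share over all libraries, apart from the highest pair.

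Among the genes of peroxisome biogenesis the differences were smaller, and most were also below 0. Of 15 peroxin genes, 12 were below 0 (80.0%, against 52.2% of all genes) and 3 above, with a median of -0.26 on the log2 scale. Without overlap, 3 lay lower (20.0%, against 8.73% of all genes) and 1 higher (against 9.01%). At an adjusted p under 0.05 there were 0 in edgeR's quasi-likelihood test, in DESeq2's Wald test or in limma's voom. Of all genes, these fits called 0.860, 3.72 and 0.841% lower and 1.11, 4.55 and 0.952% higher, in the same order. Voom with sample quality weights called 1 lower, *pex3* (6.79% of all genes were called lower in that fit). At an unadjusted p under 0.05, 2 were lower in edgeR's test (13.3%, against 8.61% of all genes) and 1 was higher, against 9.13% of all genes.

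*pex3*, *pex16* and *pex19* place membrane proteins into the peroxisomal membrane. *pex3*, the membrane anchor of this machinery, was at 20.5, 16.4, 21.4 and 20.2 normalized CPM in *cora* libraries 1 to 4, against 26.7, 29.8 and 34.0 in control libraries 1, 3 and unnumbered. The groups did not overlap, and the log2 fold change was -0.62 ± 0.19 (unadjusted p = 0.0109, adjusted p = 0.142). *pex16* was at 4.73, 13.5, 7.30 and 6.2 normalized CPM in *cora* libraries, against 6.59, 7.98 and 7.72 in control libraries, a log2 fold change of 0.09. The higher mean of *pex16* in *cora* hearts came from *cora* library 2. *pex19*, the cytosolic chaperone of these membrane proteins, had a log2 fold change of -0.26, with overlapping groups.

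*pex5* encodes the receptor that carries most matrix enzymes into the peroxisome, and its values lay higher in *cora* hearts. Its level was 27.1, 38.7, 27 and 30.9 normalized CPM in *cora* libraries 1 to 4, against 9.86, 18.3 and 25.5 in control libraries 1, 3 and unnumbered. Every *cora* library lay above every control library, by a narrow margin over the unnumbered one, and control library 1 was the lowest. The means were 30.9 ± 5.47 (SD, n = 4) in *cora* and 17.9 ± 7.81 (SD, n = 3) in control hearts, and the log2 fold change of 0.79 ± 0.32 did not pass the threshold (unadjusted p = 0.0343, adjusted p = 0.236, edgeR's quasi-likelihood test). It stayed between 0.51 and 1.13 when single libraries were left out. The other genes of import overlapped between the groups. The docking factors *pex13* and *pex14* had log2 fold changes of -0.36 and 0.17, and *pex7*, a receptor for another targeting signal, which in mammals serves *acaa1* and *agps*, had one of -0.10. *pex13* was at 28.8, 22.4, 28.2 and 27.7 normalized CPM in *cora* libraries, against 18.2, 37.9 and 47.1 in control libraries, which enclosed the *cora* values.

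The RING-finger genes *pex2* and *pex10* encode subunits of the ubiquitin ligase that recycles the import receptor. Their log2 fold changes were -0.02 and -0.22, and the groups overlapped for each. *pex2* was at 1.59, 4.60, 3.70 and 3.45 normalized CPM in *cora* libraries, against 2.80, 3.37 and 3.96 in control libraries. *pex6* and *pex26*, the ATPase that pulls the receptor out of the membrane and its anchor, had log2 fold changes of -0.14 and -0.43. *pex6* was at 7.41, 8.37, 5.82 and 8.79 normalized CPM in *cora* libraries, against 13.2, 4.61 and 7.36 in control libraries. *pex26* was at 8.12, 9.05, 9.56 and 8.17 normalized CPM in *cora* libraries, against 8.91, 12.9 and 13.5 in control libraries, and only control library 1 lay among the *cora* values.

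*pex11a* and *pex11g* belong to the family that elongates and divides peroxisomes. *pex11a* was at 0.837, 0.972, 0.970 and 1.15 normalized CPM in *cora* libraries 1 to 4, against 1.81, 2.21 and 2.03 in control libraries 1, 3 and unnumbered. The groups did not overlap, at a low level, and the log2 fold change was -1.04 ± 0.41 (unadjusted p = 0.0322, adjusted p = 0.228). *pex11g* was at 3.01, 1.72, 1.85 and 4.72 normalized CPM in *cora* libraries, against 2.07, 3.55 and 5.10 in control libraries, and its log2 fold change was -0.34.

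*pex5l* and *pex5lb* carry the *pex* name, but in mammals *PEX5L* encodes a regulator of pacemaker ion channels rather than a peroxin. *pex5l* was at 1.93, 1.76, 1.29 and 1.44 normalized CPM in *cora* libraries, against 0.172, 2.09 and 1.41 in control libraries (log2 fold change 0.38). *pex5lb* was at 0.377, 0.150, 1.25 and 1.19 normalized CPM in *cora* libraries, against 0.387, 0.273 and 1.31 in control libraries (log2 fold change 0.16). The sign of both changed when single libraries were left out.

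The ABCD proteins are membrane transporters that bring acyl chains into the peroxisome, except *abcd4*, whose product in mammals works in cobalamin export from lysosomes. The 3 genes given here were below 0 on the log2 scale, and the groups overlapped for each. *abcd2* was at 0.544, 0.785, 0.139 and 0.945 normalized CPM in *cora* libraries, against 0.775, 0.364 and 0.949 in control libraries, a log2 fold change of -0.20. *abcd3* and *abcd4* had log2 fold changes of -0.32 and -0.20, and *abcd4* shares 22 bases of exon with a gene on the opposite strand.

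Ether lipid synthesis was the enzyme group whose median was above 0 (0.48, over 3 gene IDs). *gnpat* encodes the acyltransferase that starts this synthesis inside the peroxisome, and *agps* the alkyl synthase that forms the ether bond. *agps* was at 7.28, 9.46, 8.31 and 6.0 normalized CPM in *cora* libraries 1 to 4, against 6.67, 5.10 and 4.97 in control libraries 1, 3 and unnumbered. Only *cora* library 4 and control library 1 overlapped, and the log2 fold change was 0.48 ± 0.28 (adjusted p = 0.421). The symbol *gnpat* belongs to 2 gene IDs at separate places on chromosome 20, between which reads could have been divided. ENSDARG00000074401 was at 1.93, 4.75, 2.03 and 3.37 normalized CPM in *cora* libraries, against 0.861, 2.52 and 1.34 in control libraries (log2 fold change 0.93, adjusted p = 0.397). ENSDARG00000078770 was at 3.39, 4.93, 4.16 and 3.82 normalized CPM in *cora* libraries, against 2.97, 5.01 and 8.31 in control libraries (log2 fold change -0.42, adjusted p = 0.63). The groups of both overlapped.

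**Figure D4:**
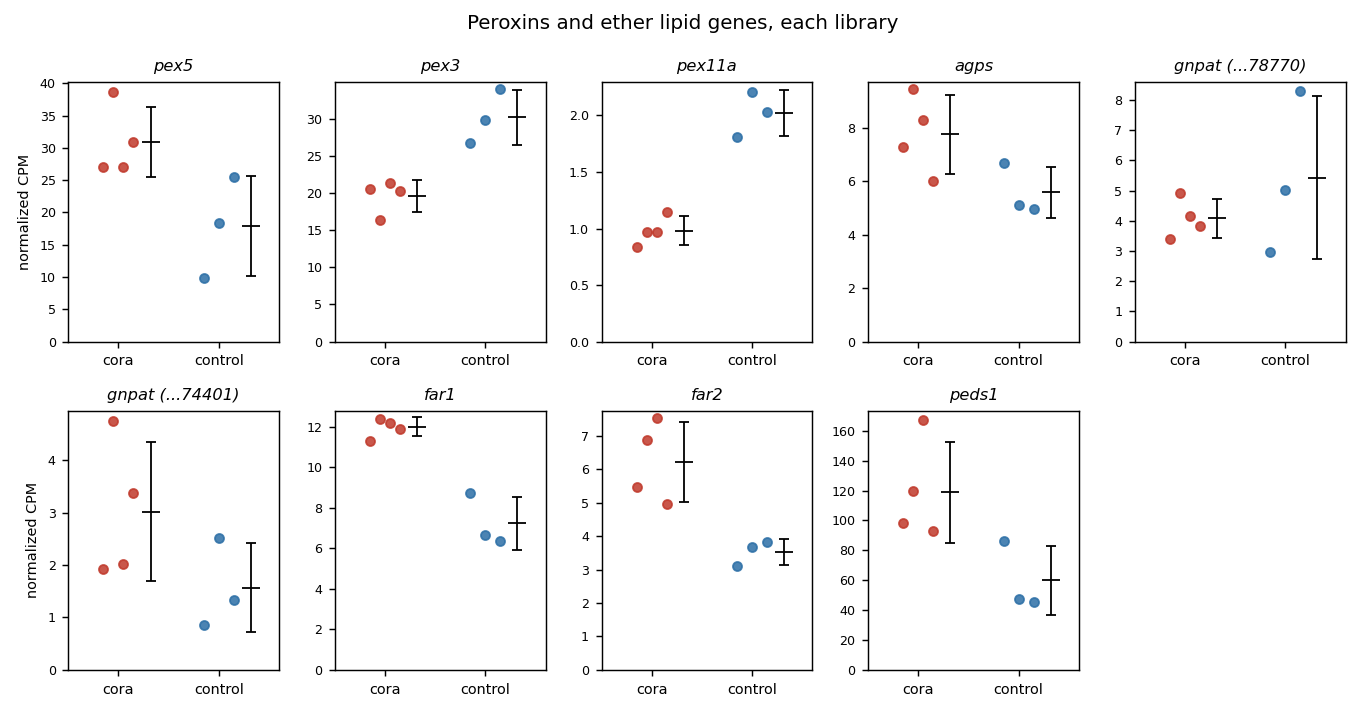
Normalized CPM of 3 peroxin genes and 6 genes of ether lipid synthesis in each library, with *cora* libraries in red on the left and control libraries in blue on the right of each panel, and the mean with its SD as bars (n = 4 and n = 3). *pex3* and *pex11a* lie lower in every *cora* library, *pex5*, *far1*, *far2* and *peds1* lie higher in every *cora* library, and *agps* and the *gnpat* genes overlap.

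Genes of the same pathways outside the rule were described from written lists. Of 33 other peroxisomal proteins tested, 25 were below 0 (75.8%, against 52.2% of all genes), with a median of -0.49 on the log2 scale. At an unadjusted p under 0.05, 12 were lower (36.4%, against 8.61% of all genes) and 2 higher (against 9.13%). Without overlap, 9 lay lower (27.3%, against 8.73%) and 2 higher (against 9.01%). At an adjusted p under 0.05, 1 fell (3.03%, against 0.860% of all genes). That gene, *dao* (ENSDARG00000035603), a D-amino acid oxidase and one of 3 neighbouring IDs with this symbol, was at 6.53, 9.35, 7.44 and 5.75 normalized CPM in *cora* libraries 1 to 4, against 16, 19.1 and 17.0 in control libraries 1, 3 and unnumbered (log2 fold change -1.26 ± 0.24, adjusted p = 0.0417). The groups lay far apart, and leaving out any one of 5 of the 7 libraries ended the call (adjusted p up to 0.181 in edgeR's test). The fits with 1 library left out called 0.113 to 2.48% of all genes lower. The neighbouring *dao* ID ENSDARG00000035601 had overlapping groups and a log2 fold change of -0.05 (adjusted p = 0.981 in edgeR's test). ENSDARG00000035602, also *dao*, was too low to be tested. The lowest of the list was *uox*, the urate oxidase of liver peroxisomes, whose log2 fold change was -2.31 (adjusted p = 0.163). Its level was 22.6, 44.0, 122 and 261 normalized CPM in *cora* libraries, against 202, 709 and 762 in control libraries. The highest was *far2*.

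*far1* and *far2*, which make the fatty alcohols of ether lipids at the peroxisomal membrane, were higher in every *cora* library. *far1* was at 11.3, 12.4, 12.2 and 11.9 normalized CPM in *cora* libraries, against 8.74, 6.64 and 6.35 in control libraries (log2 fold change 0.72, adjusted p = 0.146). *far2* was at 5.48, 6.88, 7.53 and 4.97 normalized CPM in *cora* libraries, against 3.10, 3.67 and 3.83 in control libraries (log2 fold change 0.81, adjusted p = 0.193). Neither passed the threshold. Among 9 genes of ether lipid and phospholipid steps, which include *far1* and *far2*, 5 were above 0 and 4 below. All 5 lay higher without overlap (against 9.01% of all genes). Lower without overlap were 2, *chpt1* (-1.29) and *agpat3* (-0.76) (22.2%, against 8.73% of all genes). In edgeR's test 0 had an adjusted p under 0.05. At an unadjusted p under 0.05, 4 were higher (against 9.13% of all genes) and 3 lower (33.3%, against 8.61%). DESeq2's Wald test and voom with sample quality weights, each with its own adjusted p, called 2 higher and 3 lower. Of all genes, the Wald test called 4.55% higher and 3.72% lower, and quality weights 7.60% and 6.79%. One of the 5 above 0, *plaa* (0.54), encodes a phospholipase activator and no ether lipid enzyme. The highest was *peds1*, the desaturase that forms the plasmalogen double bond, at 98.4, 120, 167 and 92.8 normalized CPM in *cora* libraries, against 86.5, 47.7 and 45.6 in control libraries (log2 fold change 1.00, adjusted p = 0.143). The lowest was *tmem86b*, a lysoplasmalogenase gene, with a log2 fold change of -1.38 (adjusted p = 0.0859).

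Mitochondrial fatty acid oxidation, the pathway that shortens most fatty acids, was also below control. All 18 genes tested were below 0 (against 52.2% of all genes), with a median of -0.82 on the log2 scale. Of these, 11 had an unadjusted p under 0.05 (61.1%, against 8.61% of all genes). At an adjusted p under 0.05, 1 fell, *decr1* (5.56%, against 0.860% of all genes). *decr1*, the dienoyl-CoA reductase for unsaturated chains, was at 17.4, 15.1, 10.3 and 14.3 normalized CPM in *cora* libraries 1 to 4, against 28.9, 50.9 and 50.9 in control libraries 1, 3 and unnumbered (log2 fold change -1.61 ± 0.27, adjusted p = 0.0287). It kept the call in 2 of the 7 fits that left out 1 library, those without control library 1 and without *cora* library 4. Of all genes, these 2 fits called 2.48 and 1.35% lower. In the others, which called 0.113 to 0.351% of all genes lower, its adjusted p in edgeR's test reached 0.14. The smallest difference was that of *acad9*, at -0.13. Cardiomyocyte markers, all 11 below 0, had the same median of -0.82. At an unadjusted p under 0.05, 1 of them was lower in edgeR's test (9.09%, against 8.61% of all genes). Without overlap, 0 of them lay lower, and 7 of the 18 mitochondrial genes did (38.9%, against 8.73% of all genes). No difference between the peroxisomal and the mitochondrial genes was tested. Of 9 tested genes of bile acid and glyoxylate steps outside the rule, 8 were below 0, with a median of -1.21, and 6 had an unadjusted p under 0.05 (66.7%, against 8.61% of all genes). At an adjusted p under 0.05 there were 0 in edgeR's test (against 0.860% of all genes lower). DESeq2's Wald test called 3 lower (against 3.72% of all genes) and voom with sample quality weights 6 (against 6.79%). The genes of this list ranged from *hoga1* at -2.45 (adjusted p = 0.0553) to *abcb11a* at 0.23. A further list of 9 tested genes held PPAR receptors, which in mammals drive transcription of many beta-oxidation genes, with coactivators and other nuclear receptors. Its PPAR genes, *pparaa* (0.13) and *pparg* (0.43, adjusted p = 0.596 in edgeR's test), were above 0, and *pparg* was the highest of the list. In the list 5 genes were below 0. The lowest was *hnf4a*, which is not a PPAR gene, at -0.79 (adjusted p = 0.227 in edgeR's test). In edgeR's or DESeq2's Wald test 0 genes of the list had an adjusted p under 0.05, while voom with sample quality weights called 1 lower. Of all genes, edgeR's test called 0.860% lower, the Wald test 3.72% and quality weights 6.79%. At an unadjusted p under 0.05, 1 gene of this list, *hnf4a*, was lower in edgeR's test (11.1%, against 8.61% of all genes). *pparaa* was at 3.22, 5.12, 7.81 and 6.28 normalized CPM in *cora* libraries, against 4.39, 5.16 and 5.86 in control libraries.

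The size of the set's difference depended on 2 control libraries. The median log2 fold change of the members was -0.34 with all libraries and -0.18 without the unnumbered control library. It was -0.54 without control library 1, the library with the high mitochondrial share. Without the unnumbered control library 0 members had an adjusted p under 0.05, where only 0.113% of all genes were called lower. The number was 0 also without control library 3 (0.113%) and without *cora* library 1 (0.126%), 2 (0.351%) or 3 (0.168%). Control library 1 was the lowest control for 24 of the 36 members (against 43.6% of all genes tested) and the highest for 6. Its ratio to the mean of the other controls had a median of 0.695 over the members, against 0.971 over all genes tested. Without it, 4 members fell at an adjusted p under 0.05 (against 2.48% of all genes), among them *scp2a*, *acaa1* and *ehhadh*. The median over all genes was then 0.01. That of the beta-oxidation genes was -0.97, and *hao1* and *pipox*, which break down glyoxylate and amino acids, had a lower one over the pair of them, -1.17. The members whose *cora* libraries lay below the remaining controls were then 18 of 36, and 2 lay above, against 18.5% of all genes in each direction.

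**Figure D5:**
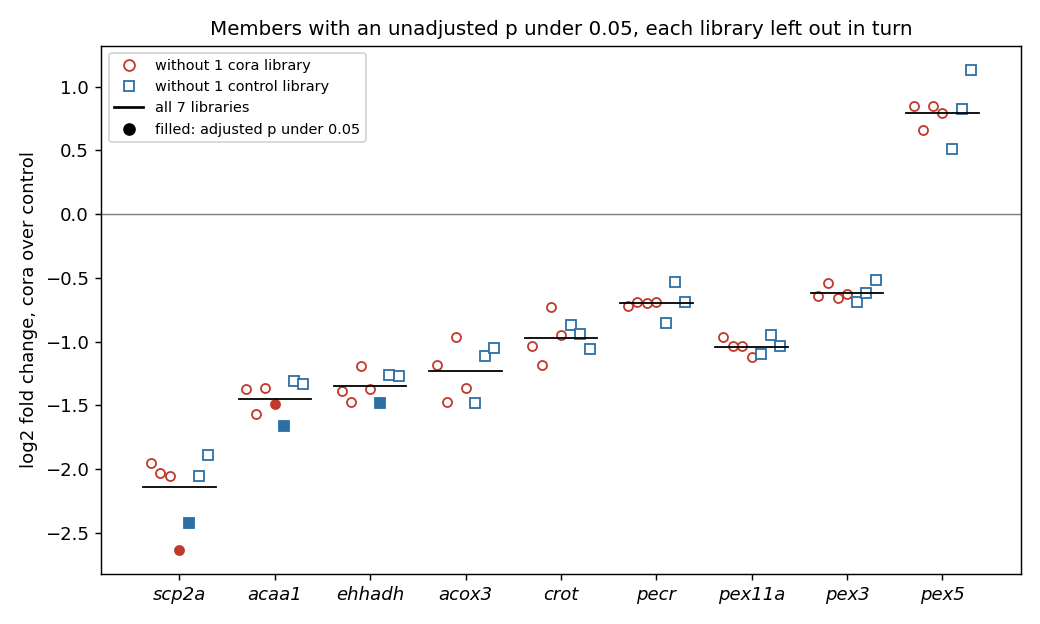
Log2 fold change of *cora* over control hearts for 9 members with an unadjusted p under 0.05, when single libraries are left out (red circles without 1 *cora* library, blue squares without 1 control library) and with all 7 libraries (black line). Every gene keeps its direction, and filled symbols, fits with an adjusted p under 0.05, occur for *scp2a* and *acaa1* in 2 of 7 fits each and for *ehhadh* in 1 fit.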

How the data were processed

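Total RNA of pooled hearts was extracted with a column kit and made into libraries with a SMARTer mRNA kit. The authors aligned reads and counted them per gene; the submitters' processing notes name STAR 2.0.4b, Subread featureCounts 1.4.5, edgeR and limma. The deposited counts are whole reads per Ensembl gene, not normalized, and the chromosome names are those of the Zv9 build. Handling of strand and of multiply mapped reads is not given in the sources used here. The deposited CPM and RPKM, which the authors computed from the counts, were not used. Only the 7 libraries' counts entered the tests.

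A table of Ensembl gene names gave a symbol to 21939 of 33737 IDs (65.0%). Members were matched by symbol, and 12 of 17 listed names were found. *hsd17b4*, *scp2b*, *cat*, *agxta*, *agxtb* and another ID of *abcd3* were not analysed here, and some members are counted in the totals but not reported by name here. The members and the gene lists were chosen with earlier results of these data known.

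Counts were fitted in R 4.3.3 with edgeR 4.0.16 (TMM scaling, filterByExpr with genotype, glmQLFit, glmQLFTest, no covariate), with Benjamini-Hochberg adjustment over 21632 genes and a threshold of 0.05. Log2 fold changes used a prior count of 0.125, and standard errors came from the F statistic. The procedure was tested on simulated counts. Depth set 3 counts at 0.0936 to 0.1397 CPM, a floor for counting error only, and the biological coefficient of variation was 0.427. Values in every library are given for members with an unadjusted p under 0.05 and the lowest and highest of each role, and from other lists for genes past the threshold and the extremes; *agps*, *pex14*, *acot8* and other values outside this rule were chosen after they were seen. Alternatives were DESeq2 1.42.0 (size factors or Wald test), library size alone, voom in limma 3.58.1 with or without quality weights, each library left out, no filter or a minimum of 10 counts in all libraries, and the number shared by libraries 1 and 3 as a block.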

Additional observations from a re-analysis of the deposited data

How the results depend on the processing

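The 23 members named by the rule had 363 values under alternatives, of which 308 kept their direction and side of the threshold. The 2 members that fell became 1 with library size alone (*acaa1* -1.41, adjusted p = 0.0546; 0.638% of all genes), 4 by DESeq2's Wald test (3.72%), 9 by voom with quality weights (6.79%), 3 with no filter and 3 with at least 10 counts in every library (*ehhadh* added, adjusted p = 0.0488 and 0.0457) and 0 to 4 with each library left out, while no alternative called a member higher. The median of -0.34 was -0.50 with quality weights and lay between -0.54 (without control library 1) and -0.18 (without the unnumbered control library) with each library left out. The members without overlap were then 9 to 18 lower and 1 to 2 higher, and with library size alone 6 were lower and 2 higher. Of all genes, 8.73% lay lower and 9.01% higher without overlap with all libraries. Without control library 1, where 18 members were lower, it was 18.5% of all genes in each direction. Such shares are not given for the other fits, so their counts cannot be set against all genes. The 2 other-list genes that fell, *dao* and *decr1*, came from lists of 33, 18, 9, 9 and 9 tested genes, some in more than 1 list. They became 1 with library size alone, 22 by the Wald test, 4 by voom (0.841% of all genes) and 37 with quality weights. There were 5 with no filter, 7 with at least 10 counts and 0 to 20 with each library left out. The other shares of all genes called lower are those given for the members. In the main fit 0 rose (against 1.11% of all genes). The Wald test called 2 higher (4.55%), quality weights 2 (7.60%) and each library left out up to 1 (up to 2.98%).

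Among the 23, reversals were confined to 10 members that overlapped between the groups: library size alone, *pex2* 0.03 and *acoxl* 0.01; voom, *pex16* -0.01 and *pex6* 0.03; quality weights, *pex16* -0.21, *pex6* 0.27 and *pex5lb* -0.17. With each library left out, *pex2* ranged from -0.21 to 0.22, *acoxl* -0.21 to 0.15, *pex16* -0.29 to 0.28, *pex6* -0.42 to 0.36, *pex5lb* -0.20 to 1.16, *pex5l* -0.12 to 1.02, *pex11g* -0.70 to 0.01, *abcd2* -0.50 to 0.13 and *gnpat* (ENSDARG00000078770) -0.69 to 0.03. The cause was not tested.

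The labels give libraries numbered 1 and 3 a shared number and no other link. Deviations of same-numbered libraries had correlations of 0.0576 and 0.0316, which cannot decide whether they were paired. With the replicate block 0 members and 0 other-list genes were called (*pex16* -0.30, *pex13* 0.12, *acoxl* 0.07). Without it, in the same 4 libraries, 0 and 0 were called (*pex16* -0.28, *pex13* 0.02, *acoxl* 0.10). Of all 21404 genes tested, 0 were called in either fit, so these counts show nothing particular to the members.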
